A study of Rattus norvegicus with 12 samples.

Results

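The miR-183 cluster is a group of 3 neighbouring microRNA hairpins, miR-183, miR-96 and miR-182, and its mature products are described here in rat gastric mucosa. Members were all entries of the deposited count tables whose name, without the arm ending, is miR-183, miR-96 or miR-182. These were 5 mature arms of 649 mature miRNAs listed in either table: miR-183-5p, miR-183-3p, miR-96-5p, miR-96-3p and miR-182. Small RNA was sequenced in 12 libraries, 4 in each of 3 groups. Normal rats were untreated. Model rats drank MNNG (N-Methyl-N'-Nitro-N-Nitrosoguanidine), a mutagen that alkylates DNA, at 180 µg/ml for 24 weeks, were gavaged with 2% sodium salicylate and were fed for 2 days and fasted for 1 in turn, a regimen meant to model chronic atrophic gastritis. XLHZ rats went through this regimen and were given Xianglianhuazhuo (XLHZ) formula for 60 days. Neither strain nor age is given in the labels. They also do not say that each library came from its own rat, and the p-values below therefore reflect only how far these libraries differ, which may be partly technical.

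The 3 hairpins are transcribed together in a single long primary transcript, which the nuclear enzyme Drosha and then the cytoplasmic enzyme Dicer cut into short mature miRNAs. One arm of each hairpin is usually loaded into an Argonaute protein as the guide, and the other is mostly degraded. The guide finds messenger RNAs mainly through its seed, bases 2 to 8 from the 5′ end. The cluster is best known from sensory cells of the ear, eye and nose, where miR-96 is needed for hearing. It is also produced by several epithelia, and miR-182 is induced in activated lymphocytes, where it represses the transcription factor Foxo1.

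In the RefSeq entries for rat build GRCr8, the hairpins lie on the minus strand of chromosome 4. Mir183 is at chr4:59756044-59756153, Mir96 at chr4:59755841-59755946 and Mir182 at chr4:59752246-59752307. In the direction of transcription Mir183 comes first, Mir96 follows after 97 bases and Mir182 after a further 3533 bases. No protein-coding gene overlaps them in that annotation, and the flanking protein-coding genes are Ube2h and Nrf1. For the deposited counts, the build was not given in the sources used here. All 5 arms had a RefSeq sequence. They are shown 5′ to 3′ with the seed in capitals, because the seeds show how the 3 guides relate:

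miR-183-5p: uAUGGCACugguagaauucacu

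miR-96-5p: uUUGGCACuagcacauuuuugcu

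miR-182: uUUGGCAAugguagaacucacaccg

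miR-183-3p: uGAAUUACcgaagggccauaa

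miR-96-3p: cAAUCAUGugcagugccaauau

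The 3 guides have related seeds, but no pair has the same one. From miR-96-5p to miR-182 the seed changes once, C8A, counting from 1 at the 5′ end. From miR-183-5p to miR-96-5p it also changes once, A2U. Between miR-183-5p and miR-182 both changes occur, A2U and C8A. Over their whole length the closest pair is a different one. miR-183-5p and miR-182 share 18 of 22 aligned positions, including the unbroken stretch from base 9 to base 16, whereas miR-96-5p shares 12 of 23 with miR-182 and 13 of 22 with miR-183-5p. RefSeq gave a mature sequence for 587 of the 648 miRNAs whose counts could be joined across both tables, and 0 of the others among them shared bases 2 to 7 with any of the 5 arms.

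Library totals ranged from 9094962 to 11556058 miRNA counts, of which the cluster took 0.449% to 0.640% in normal libraries, 0.253% to 0.745% in model libraries and 0.532% to 0.656% in XLHZ libraries. The 95% exact binomial interval of the lowest share, in model library 2, was 0.250% to 0.256%, and that of the highest, in model library 4, was 0.740% to 0.750%. These intervals cover counting error only. Model libraries 2 and 3 had the highest shares of miR-143-3p, a miRNA of smooth muscle and not a member. It took 29.2% and 25.1% of their counts, against 9.39% to 22.98% in the other 10 libraries. For the 3 guides, fold changes, spreads and correlations that rest on model library 2 are given with and without it below. Fold changes of the lists of other cell-type miRNAs are given with all libraries only. In bulk tissue, fewer cells that make a miRNA and less of it per cell cannot be told apart.

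miR-182 was the most abundant member, ranking 54 of 648 miRNAs by mean level. Its counts were 22874, 27231, 34039 and 32011 in normal libraries 1 to 4. They were 27551, 14042, 24125 and 37225 in the model libraries and 27283, 28327, 35906 and 33834 in the XLHZ libraries. In raw counts the lowest and the highest of the 12 were both model libraries, and all 3 groups overlapped. As CPM, the count scaled to library size with trimmed-mean (TMM) factors, miR-182 measured 2604 ± 329 in normal, 2504 ± 688 in model and 2898 ± 310.0 in XLHZ mucosa (mean ± SD, n = 4 here and below). Its log2 fold change was -0.061 in model against normal mucosa, with a 95% interval of -0.55 to 0.43. It was 0.19 in XLHZ against model mucosa (-0.29 to 0.68) and 0.12 in XLHZ against normal mucosa (-0.14 to 0.38).

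miR-96-5p, whose seed differs from that of miR-182 at base 8 alone, ranked 62. It had 17287, 18050, 25197 and 19800 counts in normal libraries 1 to 4. The model libraries held 21562, 9894, 17507 and 33302, and the XLHZ libraries 22724, 22124, 25080 and 23103. Model libraries 2 and 4 were again the extremes, and the 4 XLHZ libraries lay close together. The levels were 1808 ± 293 CPM in normal, 1981 ± 718 CPM in model and 2158 ± 156 CPM in XLHZ mucosa. The log2 fold change was 0.13 for model against normal (-0.47 to 0.73), 0.10 for XLHZ against model (-0.47 to 0.68) and 0.22 for XLHZ against normal mucosa (-0.045 to 0.49).

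miR-183-5p, the guide of the first hairpin, ranked 86. Its counts were 5816, 6544, 8402 and 8878 in normal, 7077, 3736, 5571 and 8768 in model, and 7550, 7169, 8589 and 9187 in XLHZ libraries 1 to 4. Model library 2 was the lowest and XLHZ library 4 the highest in raw counts. The levels were 664 ± 95.8 CPM in normal, 613 ± 150.1 CPM in model and 751 ± 47.3 CPM in XLHZ mucosa. The log2 fold change was -0.12 for model against normal (-0.60 to 0.37), 0.27 for XLHZ against model (-0.18 to 0.72) and 0.15 for XLHZ against normal mucosa (-0.13 to 0.43).

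The other arms were scarce. miR-183-3p had 66, 72, 102 and 114 counts in normal, 99, 46, 91 and 141 in model, and 103, 85, 124 and 116 in XLHZ libraries 1 to 4, or 7.91 ± 1.65, 9.15 ± 2.92 and 9.89 ± 1.35 CPM. Like its guide it was lowest in model library 2, and its highest count was in model library 4. Its log2 fold changes were 0.21, 0.092 and 0.29 in the 3 comparisons, in the same order. miR-96-3p had 0 to 10 counts per library and 42 in all 12, against 255630 for miR-96-5p. It did not reach the count minimum for testing, and its 0 in normal library 2 allows up to 3 counts at that depth. No opposite arm of the miR-182 hairpin is listed in the tables.

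**Figure D1:**
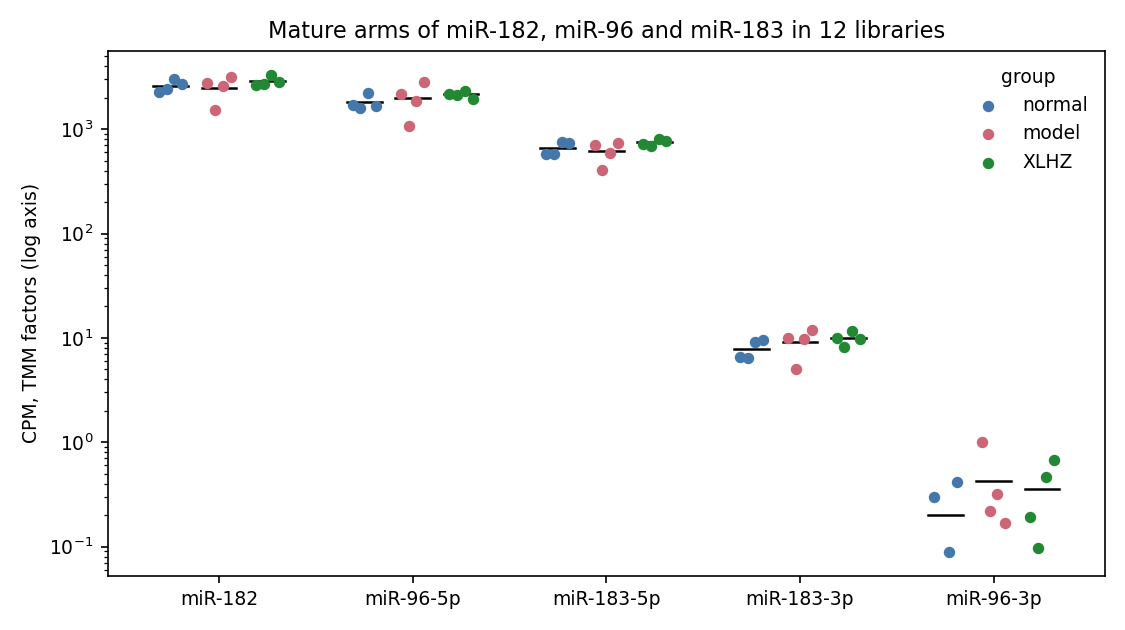
Level of each mature arm in CPM with TMM factors on a log axis, 1 point per library, coloured by group, with a bar at the group mean; the single 0 of miR-96-3p, in normal library 2, cannot be drawn on this axis. The 3 guides lie far above their opposite arms, the groups overlap for each arm, and 1 model library lies below all others for the guides and miR-183-3p.

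No member passed in any comparison. With edgeR's quasi-likelihood test and Benjamini-Hochberg adjustment over all miRNAs, 0 of 4 tested arms passed in model against normal mucosa, where 0.248% of 403 miRNAs passed. It was 0 of 4 in XLHZ against model mucosa, where 0.249% of 402 passed, and 0 of 4 in XLHZ against normal mucosa, where 1.5% of 401 passed. DESeq2 and limma-trend called 0 members as well. At an unadjusted p under 0.05 the edgeR count of members was also 0 in each comparison, beside 7.20%, 4.23% and 8.73% of all miRNAs tested, shares at which a count of 0 of 4 says little about the members. The adjusted p-values of the 12 edgeR tests lay between 0.584 and 0.939. The precision differed between comparisons. For the 3 guides the 95% interval reached 0.48 to 0.60 on the log2 scale to either side of the estimate in model against normal, 0.45 to 0.57 in XLHZ against model and 0.26 to 0.28 in XLHZ against normal mucosa. The comparisons share libraries in pairs, so their values are not independent of each other. The median log2 fold change of all miRNAs tested was -0.0072, 0.0057 and -0.0040 in the 3 comparisons, and that of the 4 members was 0.033, 0.15 and 0.18.

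**Figure D2:**
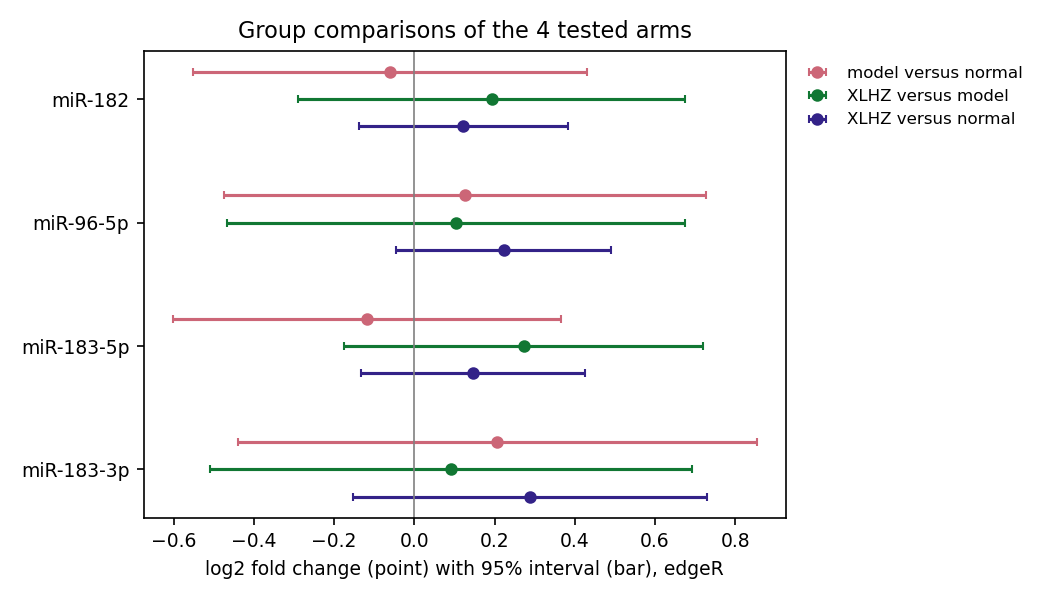
Log2 fold change of each tested arm (point) with its 95% interval from edgeR (bar) in the 3 comparisons, coloured by comparison; the vertical line marks no difference. All 12 intervals include 0, and those of XLHZ against normal mucosa are the narrowest for each arm.

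With all 4 libraries the model group had the widest spread for each guide, and for miR-182 and miR-183-5p this rested on model library 2. The coefficient of variation (CV, SD as a percentage of the mean) of miR-182 was 27.5% in model, 12.6% in normal and 10.7% in XLHZ libraries. For miR-96-5p it was 36.2%, 16.2% and 7.21%, and for miR-183-5p it was 24.5%, 14.4% and 6.30%. Without model library 2 the model CV was 10.2% for miR-182, 21.2% for miR-96-5p and 11.2% for miR-183-5p, so that only miR-96-5p still varied more in model than in normal libraries. These differences in spread were not tested. The summed level of the 5 arms was 5631, 3029, 5059.8 and 6714 CPM in model libraries 1 to 4, against 4598 to 6026 CPM in normal and 5576 to 6486 CPM in XLHZ libraries. Without model library 2 the log2 fold change against normal mucosa turned to 0.038 for miR-183-5p and 0.12 for miR-182, and that of XLHZ against model mucosa turned to -0.10 for miR-96-5p and -0.11 for miR-183-3p. The XLHZ against model values of the other guides shrank to 0.017 for miR-182 and 0.12 for miR-183-5p without that library, and the latter to 0.0018 without model libraries 2 and 3. Without model library 4 the model against normal value of miR-96-5p turned to -0.089. None of these passed.

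The division of the cluster's counts among its guides varied less over all 12 libraries than the levels did, but not in each group. Across 12 libraries, miR-182 made up 46.9% to 52.6% of the cluster counts, miR-96-5p 32.6% to 41.9% and miR-183-5p 11.0% to 14.6%. Ratios of counts within a library do not depend on its scaling. Per count of miR-182 there were 0.254 ± 0.0161 counts of miR-183-5p (mean ± SD over 12 libraries, range 0.231 to 0.277) and 0.740 ± 0.0759 of miR-96-5p (0.619 to 0.895). These ratios had a CV of 6.34% and 10.3%, against 17.4% for the level of miR-182, 22.2% for miR-96-5p and 16.7% for miR-183-5p. Without model library 2 the ratio CVs were 6.49% and 10.6%, and the level CVs 11.2%, 17.0% and 11.3%. Within the XLHZ group the ratios, at 6.63% and 9.44%, were no steadier than the levels of miR-183-5p (6.30%) and miR-96-5p (7.21%). In model library 2, with the lowest cluster level, these ratios were 0.266 and 0.705, within the range of the other libraries.

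**Figure D3:**
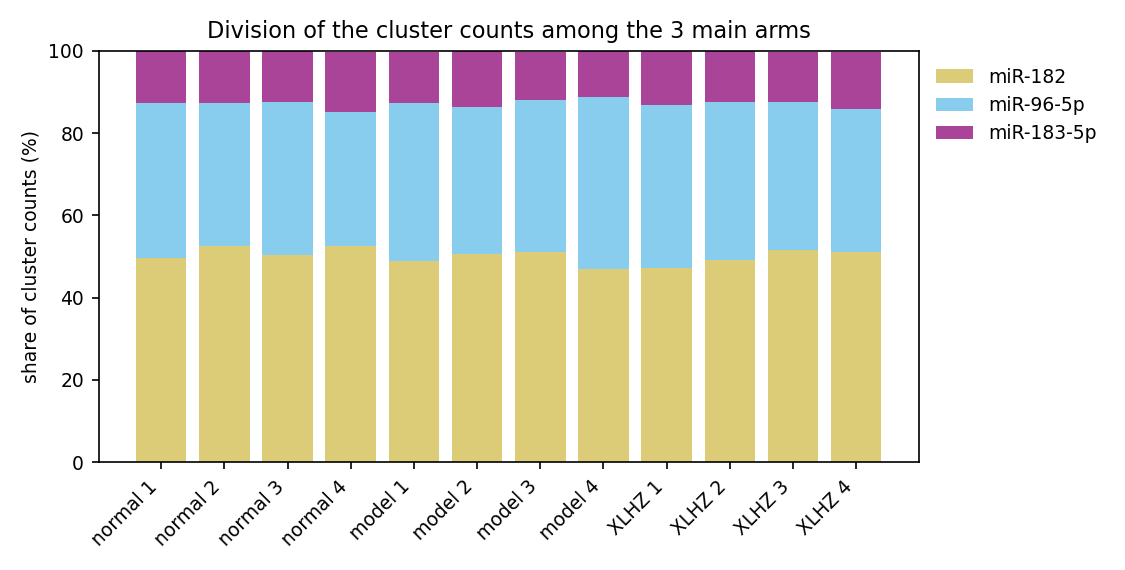
Share of the cluster's counts, in percent, taken by miR-182, miR-96-5p and miR-183-5p in each library; the opposite arms together are too small to be seen. The order miR-182, miR-96-5p, miR-183-5p holds in all 12 libraries, and model library 4 has the largest miR-96-5p share, 41.9%.

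Ratios between groups were compared with two-sided exact permutation tests of 4 against 4 libraries, whose smallest possible p is 0.0286, and adjusted over the 12 tests. No ratio passed after adjustment. The log2 ratio of miR-96-5p to miR-182 was -0.53 ± 0.136 in normal, -0.37 ± 0.154 in model and -0.42 ± 0.135 in XLHZ libraries (exact p = 0.2 for model against normal, adjusted p = 0.490). The log2 ratio of miR-183-5p to miR-182 was -1.98 ± 0.0898, -2.02 ± 0.0980 and -1.95 ± 0.0966 (smallest exact p = 0.286, XLHZ against model, adjusted p = 0.490). The spread of both ratios exceeded counting error, which was 0.0109 to 0.0189 for miR-96-5p to miR-182 and 0.0170 to 0.0266 for miR-183-5p to miR-182 on the same log2 scale.

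The arms of the miR-183 hairpin gave the smallest p among the ratios. In normal libraries 1 to 4 there were 88.1, 90.9, 82.4 and 77.9 counts of miR-183-5p per count of miR-183-3p. Model libraries had 71.5, 81.2, 61.2 and 62.2, and XLHZ libraries 73.3, 84.3, 69.3 and 79.2. Model library 2 lay inside the normal range and the other 3 model libraries lay below it. The mean log2 ratio was 6.40 ± 0.0998 in normal and 6.10 ± 0.191 in model libraries, a difference of -0.30 (exact p = 0.0571, adjusted p = 0.490). Counting error alone was 0.122 to 0.214 per library here, about the size of the spread within groups, because miR-183-3p had so few counts.

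The 3 guides varied together across libraries. Over 12 libraries, Pearson's r of log2 (CPM + 1) was 0.95 for miR-183-5p and miR-182 (permutation p = 3e-05, adjusted over 3 pairs 9e-05), with Spearman's rho of 0.87 (permutation p = 0.00043, adjusted 0.00117). For miR-96-5p and miR-182 r was 0.91 (permutation p = 0.00027, adjusted 0.000405) and rho 0.85 (permutation p = 0.00078, adjusted 0.00117). For miR-183-5p and miR-96-5p r was 0.84 (permutation p = 0.00177, adjusted 0.00177) and rho 0.68 (permutation p = 0.0189, adjusted 0.0189). All these levels share the scaling of their library, which the permutation tests do not take into account. With library totals in place of TMM factors r was 0.97, 0.95 and 0.91 in that order. On deviations from the group means, with TMM factors, r was 0.95, 0.93 and 0.88. It was 0.84, 0.75 and 0.61 without model library 2, and 0.84, 0.68 and 0.49 over the 8 normal and XLHZ libraries alone, so the within-group values were highest with the model libraries included. Groups of 4 are too small for a correlation each. Without the 2 libraries farthest from the median of the first-named guide it was 0.81, 0.75 and 0.48. The relation of miR-183-5p and miR-96-5p was weaker without those libraries, model library 2 and normal library 2. Without normal library 2 alone its r was 0.83. Without model library 2 alone, r of the 3 pairs was 0.84, 0.78 and 0.61, so that relation rests largely on model library 2.

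**Figure D4:**
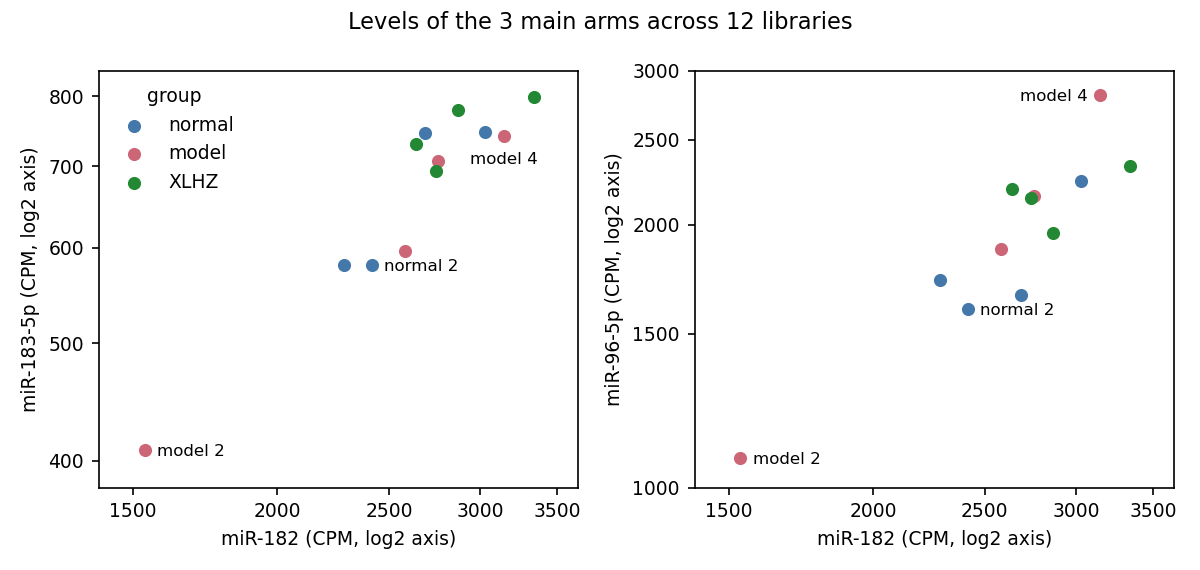
Level of miR-183-5p (left) and miR-96-5p (right) against that of miR-182 in CPM on log2 axes, 1 point per library, coloured by group. Points rise together in both panels; model library 2 is at the lower left of each, and model library 4 has more miR-96-5p than any other library.

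A further entry comes from the same locus. miR-3553 is annotated in RefSeq on the strand opposite to Mir183, and its sequence is shown because it is the reverse complement of miR-183-5p, with the bases complementary to miR-183-5p in capitals:

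miR-3553: cAGUGAAUUCUACCAGUGCCAUA

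All 22 bases of miR-183-5p pair with bases 2 to 23 of miR-3553. It is no member by name and was singled out after its values were seen. It had 2815, 3279, 5010 and 5079 counts in normal, 3587, 1715, 3256 and 4225 in model, and 3551, 3328, 3890 and 4276 in XLHZ libraries 1 to 4. There were 0.503 ± 0.0517 counts of it per count of miR-183-5p (range 0.453 to 0.596, n = 12). By group the range was 0.484 to 0.596 in normal, 0.459 to 0.584 in model and 0.453 to 0.470 in XLHZ libraries. In XLHZ against normal mucosa its log2 fold change was -0.087, against 0.15 for miR-183-5p. Whether this ratio differs between groups was not tested. The RefSeq annotation gave 33 pairs of miRNAs that overlap on opposite strands by at least 15 bases with at least 1000 counts together. Pairs with miR-20b were left out. A partner with no entry among the joined counts, such as either arm of miR-9b, was scored as 0. Its share shows nothing about how strands were counted. In 28 of the 33 pairs, including those with miR-9b, the less counted partner took under 1% of the pair's counts. In 3 it took over 10%: miR-3553 with 33.5%, miR-3557-5p opposite miR-378a-3p with 32.5%, and miR-505-3p opposite miR-3589 with 40.6%. Use of strand in counting was not given in the sources used here. Whether the counts of miR-3553 include reads of miR-183-5p is therefore not known, and the level of miR-183-5p is uncertain to that extent. Adding both, a choice made after seeing the data, gave log2 fold changes of -0.15, 0.23 and 0.070 in the 3 comparisons, and no call. The ratio of miR-183-5p to miR-183-3p then differed by -0.33 between model and normal libraries (exact p = 0.0286, the smallest possible, not adjusted).

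The miRNAs most like the cluster were ranked by Pearson's r, over 12 libraries, with the mean log2 level of the 3 guides. Among 279 other miRNAs with a mean of at least 10 CPM the median r was 0.068, with 6 above 0.8 and 7 below -0.8. These r are a description, since all levels share the scaling of their library. The highest were miR-3553 (0.86), miR-532-5p (0.85), miR-126a-3p (0.85), miR-32-5p (0.84) and miR-340-5p (0.83). Of these, miR-126a-3p is the classical endothelial miRNA. Without model library 2 and normal library 2, the libraries farthest from the median profile, r was 0.43, 0.51, 0.72, 0.65 and 0.85. The lowest were miR-125b-5p (-0.92), miR-26a-5p (-0.88), miR-137-3p (-0.88), miR-10a-3p (-0.85) and miR-10a-5p (-0.84), and without those libraries -0.81, -0.75, -0.57, -0.58 and -0.55. In model library 2 miR-125b-5p, a homologue of the worm timing gene lin-4, had its highest level among the model libraries, which spanned 19673 to 48480.0 CPM.

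The cluster was set beside lists of other cell-type miRNAs. The miR-200 family (miR-200a, miR-200b, miR-200c, miR-141 and miR-429), which maintains epithelial identity, summed to 68204 to 80518 CPM in normal, 54147 to 85725 CPM in model and 73136 to 85171 CPM in XLHZ libraries. Over 12 libraries its summed log2 level had r = 0.84 with the cluster profile, and 0.57 without model library 2 and normal library 2. By member, r was 0.79 for miR-200a-3p, 0.76 for miR-141-3p, 0.70 for miR-200b-3p, 0.62 for miR-429 and 0.29 for miR-200c-3p. Without the same libraries these values were 0.50, 0.65, 0.24, 0.29 and 0.29 in that order. Per 1000 counts of the family there were 66.2 ± 7.72 counts of the cluster in normal, 66.6 ± 10.8 in model and 72.5 ± 5.15 in XLHZ libraries. In model library 2 there were 55.9, the lowest of the 12, against 57.2 to 78.6 in the others.

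Smooth muscle miR-143 and miR-145 ran the other way (r = -0.63, and -0.36 without the same libraries). They summed to 133246 to 219379 CPM in normal, 145151 to 403505 CPM in model and 97611 to 277213 CPM in XLHZ libraries, and all 4 of their arms were counted in the tables. Per 1000 smooth muscle counts there were 7.51 and 14.2 counts of the cluster in model libraries 2 and 3, against 20.2 to 57.1 in the other 10. The neuronal list had r = -0.78 (-0.39 without the same libraries). Its 7 hairpins found of 8 summed to 865 to 2127 CPM over all libraries, and miR-9b was not analysed here. Of the smooth muscle arms 4 of 4 had a positive log2 fold change in model against normal mucosa and 4 of 4 a negative one in XLHZ against model mucosa. Of 8 tested neuronal arms 7 and 7 did, and none of all these passed. The median of all miRNAs tested was -0.0072 and 0.0057 in these comparisons. The signs are not independent, since the smooth muscle arms come from 2 hairpins and both comparisons use the same model libraries. In model libraries 1 to 4 the smooth muscle sum was 215562, 403505, 356150 and 145151 CPM. For the intestinal-type list (miR-192, miR-194 and miR-215) r was 0.66 (0.21 without), for leukocytes 0.31 (-0.30), for gastric and endocrine epithelium 0.056 (0.14) and for squamous epithelium -0.11 (-0.73). Which cells of the mucosa made the cluster is not shown by bulk libraries, and the part of these other cell types in its level was not tested. With library sizes and TMM factors computed without miR-143-3p, no member passed either.

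**Figure D5:**
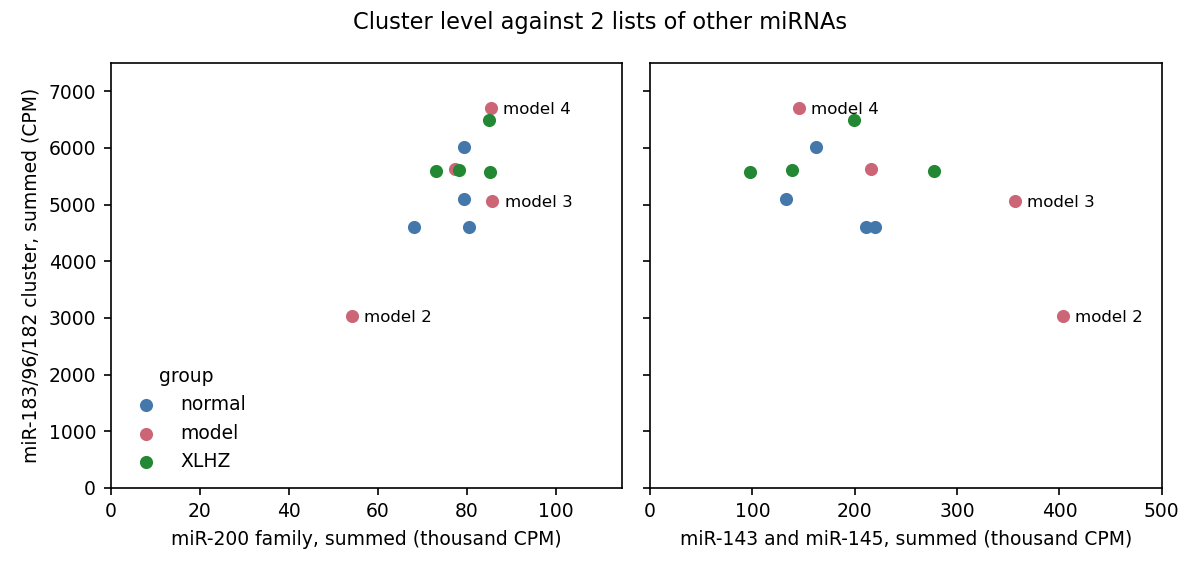
Summed CPM of the 5 arms against the summed CPM (axis in units of 1000) of the miR-200 family (left) and of miR-143 and miR-145 (right), 1 point per library, coloured by group. Model library 2 has the least of the cluster and of the miR-200 family and the most of miR-143 and miR-145.

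None of the 44 tested arms of these 7 lists passed in any comparison in edgeR, and none did with DESeq2 or limma-trend. At an unadjusted p under 0.05 there were 6, 3 and 4 such arms in the 3 comparisons, or 13.6%, 6.82% and 9.09% of them, beside the 7.20%, 4.23% and 8.73% of all miRNAs. The median log2 fold change of the miR-200 family was -0.029, 0.14 and 0.020, beside 0.033, 0.15 and 0.18 for the cluster. That of the smooth muscle arms was 0.62, -0.67 and -0.058.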

How the data were processed

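Small RNA libraries of rat gastric mucosa were made with a QIAseq miRNA kit, per the labels' protocols. The authors deposited, in each of 2 tables (normal with model, model with XLHZ), raw counts per mature miRNA and CPM, which equal count over library total to within 5.0e-05. Bowtie and DESeq are named in the submitters' processing notes, without versions. Genome build, strand use and handling of molecular identifiers were not given in the sources used here. Member counts in the model libraries are identical in both tables. The tables were joined with 1 miRNA of differing model counts left out and miRNAs of a single table (at most 3 counts) set to 0 in the other.

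Counts were tested with edgeR 4.0.16 (R 4.3.3; TMM, minimum count 10, quasi-likelihood, Benjamini-Hochberg over all miRNAs, threshold 0.05) on the 8 libraries of each comparison, after the procedure was tested on simulated data. XLHZ against normal used the joined tables. DESeq2 1.42.0 and limma 3.58.1 were alternatives, beside other scalings, filters, libraries left out and a replicate block. Levels are CPM with TMM factors over 12 libraries. Named were every member arm, the 5 miRNAs most and least like the mean profile of the guides among those with a mean of at least 10 CPM, miRNAs sharing a seed, and the marker lists. miR-3553, and the spreads and within-group correlations without model libraries, were added after seeing the data. Members and lists were chosen with earlier results of these data known.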

Additional observations from a re-analysis of the deposited data

Results flagged for a closer look

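The summed cluster level of XLHZ library 3 was 6486 CPM, against 5576, 5590.2 and 5614 CPM in the other XLHZ libraries. Its gap to the nearest was 0.958 of the group's range, past the 95% critical value of Dixon's test for 4 samples (0.829). Of 30 such group checks this was the one that passed, and chance alone flags about 1 in 20.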

How the results depend on the processing

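In 236 alternative fits of member fold changes 0 had an adjusted p under 0.05 (lowest 0.356); 223 kept their direction and 13 did not. For model against normal mucosa, miR-183-5p turned to 0.038 without model library 2 and to 0.16 without model libraries 2 and 3, and miR-182 to 0.12 and 0.21, to 0.059 without normal library 3 and to 0.0043 with upper-quartile factors. miR-96-5p turned to -0.089 without model library 4. For XLHZ against model mucosa, miR-96-5p turned to -0.10 without model library 2 and -0.25 without model libraries 2 and 3, miR-183-3p to -0.11 and -0.19 (and to -0.0061 without XLHZ library 3), and miR-182 to -0.075 without both. Leaving out 1 library at a time, model against normal ranged from -0.22 to 0.038 for miR-183-5p, -0.089 to 0.33 for miR-96-5p and -0.19 to 0.12 for miR-182, and XLHZ against model from -0.10 to 0.34 for miR-96-5p and -0.11 to 0.27 for miR-183-3p. Among log2 ratios, miR-183-5p to miR-182 (XLHZ against normal) turned to -0.00029 without XLHZ library 1 (range -0.00029 to 0.072) and to -0.041 with miR-3553 added. miR-96-5p to miR-182 (XLHZ against model) turned to 0.018 without model library 4 (range -0.10 to 0.018), and miR-96-5p to miR-183-5p (XLHZ against normal) to -0.017 without normal library 4 (range -0.017 to 0.14). With miR-3553 added, miR-183-5p to miR-183-3p (model against normal) was -0.33 and past the unadjusted threshold. The number of all miRNAs called in model against normal went from 1 to 2 (upper-quartile factors, library totals, at least 50 counts in 4 libraries), 3 (no count filter), 4 (all 12 libraries in 1 fit) and 5 (DESeq2), and ranged from 1 to 4 with 1 library left out. In XLHZ against model it went from 1 to 0 without model libraries 2 and 3, and ranged from 0 to 1. In XLHZ against normal it went from 6 to 2 with all 12 libraries in 1 fit, and ranged from 4 to 7. With library totals the median of all miRNAs moved to -0.12, 0.17 and 0.057. The causes were not tested. The labels do not say whether replicate numbers pair the libraries. Pairing was looked at in the deviations of log2 (CPM + 1) from the group means, over miRNAs with a mean of at least 10 CPM. In these deviations same-numbered libraries correlated at -0.44 to 0.40, -0.17 to 0.52 and -0.13 to 0.39 in the 3 comparisons. By comparison, 2, 2 and 1 of 4 correlated best with their own number. With 4 libraries per group, such values cannot show whether a pairing exists. With the replicate block the log2 fold changes of miR-183-5p, miR-96-5p and miR-182 were -0.14, 0.058 and -0.10, then 0.31, 0.18 and 0.23, then 0.16, 0.23 and 0.13, and 1, 1 and 5 miRNAs were called. Without model libraries 2 and 4, chosen after seeing the data, r between guides was 0.65 (miR-183-5p and miR-96-5p), 0.85 (miR-183-5p and miR-182) and 0.75 (miR-96-5p and miR-182). Depth limits miR-183-3p and miR-96-3p but not the guides, whose spread between libraries is the limit.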
